A study of Homo sapiens with 7 samples.

Results

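Chromosomes 18 and 19 were compared for where the vitamin D receptor (VDR) was called in THP-1 cells, a human monocytic leukaemia line. Every peak on these chromosomes was taken from 5 peak lists, and peaks that shared at least 1 bp were joined into 1 site. This gave 1746 sites from 1965 peaks on chromosome 18 and 645 sites from 968 peaks on chromosome 19. Together they make 2391 of the 48704 sites on the 17 chromosomes that all 5 lists cover.

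VDR is a nuclear receptor that binds DNA together with the retinoid X receptor and is activated by 1,25-dihydroxyvitamin D3 (1,25D), the hormone form of vitamin D. Some receptor is bound to chromatin before hormone is added, and hormone both raises binding at such sites and brings the receptor to further ones. Chromosomes 18 and 19 are a textbook pair for nuclear organisation, since they are near each other in size but chromosome 19 is dense in genes and lies towards the nuclear interior, and chromosome 18 is poor in genes and lies towards the periphery.

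Cells had received 100 nM 1,25D or the solvent, 0.1% ethanol (EtOH), for 8 h. VDR-bound DNA was then collected by ChIPmentation, where adapters are inserted by a transposase while the chromatin is still on the antibody beads. The comparison used replicates 1 and 3 of 1,25D and replicates 1, 2 and 3 of EtOH. The list of 1,25D replicate 2 ends on chromosome 16 and could not be used. The labels do not say that replicates were separate cultures, so the spread between lists may be technical.

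On the covered chromosomes the lists held 9094 and 8253 peaks for 1,25D and 8851, 20491 and 9904 for EtOH. EtOH replicate 2 was thus the longest list by far. Read depth is unknown, so no site that is missing from a list can be read as unbound. Each peak's fold is the authors' enrichment of that peak. Peaks of fold 5 or more are called strong here, and fold is used within a list to split or rank its peaks. The highest p in the lists was 0.00433 and 0.00431 for the replicates 1 of 1,25D and EtOH and 0.00990 to 0.00997 for the other 3 lists, so the lists did not share 1 calling limit.

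The labels of gene-rich and gene-poor fit the gene table used here. In the RefSeq table of GRCh38.p14, chromosome 19 has 1451 protein-coding genes and chromosome 18 has 270. Chromosome 19 is also the shorter one in these lists, with peaks reaching to 59.1 Mb, against 78.0 Mb on chromosome 18. The peak coordinates are in hg19, for which no gene annotation was used here, so sites are named by position only.

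Chromosome 18 held more peaks in all, and chromosome 19 held more strong peaks. Chromosome 18 carried 289 and 254 peaks under 1,25D, compared with 319, 783 and 320 under EtOH. Chromosome 19 carried 195 and 265 under 1,25D, compared with 102, 280 and 126 under EtOH. Chromosome 18 was ahead in 4 of the 5 lists, the exception being 1,25D replicate 3. Among strong peaks the order turned in 5 of 5 lists. Chromosome 18 then held 45 and 52 peaks under 1,25D and 13, 15 and 11 under EtOH. Chromosome 19 held 71 and 98 under 1,25D and 20, 25 and 25 under EtOH. At fold 10 or more, chromosome 18 kept 7 and 11 peaks under 1,25D and 2, 2 and 1 under EtOH, while chromosome 19 kept 19 and 30 under 1,25D and 4, 5 and 4 under EtOH.

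The mean log2 ratio of chromosome 19 over 18 was -0.996 for all peaks, 0.82 for strong peaks and 1.44 at fold 10 or more, over 5 lists. An exact two-sided sign-flip permutation test over the lists gave p = 0.125 for all peaks and p = 0.063 at either fold limit, which is the smallest that 5 lists allow. Adjusted by Benjamini-Hochberg over the 5 permutation tests made here, each of these p-values became 0.156, so none passed 0.05. Counted per Mb, all peaks stood at 3.70 and 3.26 on chromosome 18 under 1,25D and at 3.30 and 4.49 on chromosome 19. Under EtOH the range was 4.09 to 10.0 on chromosome 18 and 1.73 to 4.74 on chromosome 19. The order in each list was as before, but the mean log2 ratio shrank to -0.595. The strong peaks stood at 0.577 and 0.667 per Mb on chromosome 18 under 1,25D and at 1.20 and 1.66 on chromosome 19. Under EtOH they stood at 0.141 to 0.192 per Mb on chromosome 18 and at 0.339 to 0.423 on chromosome 19.

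**Figure D1:**
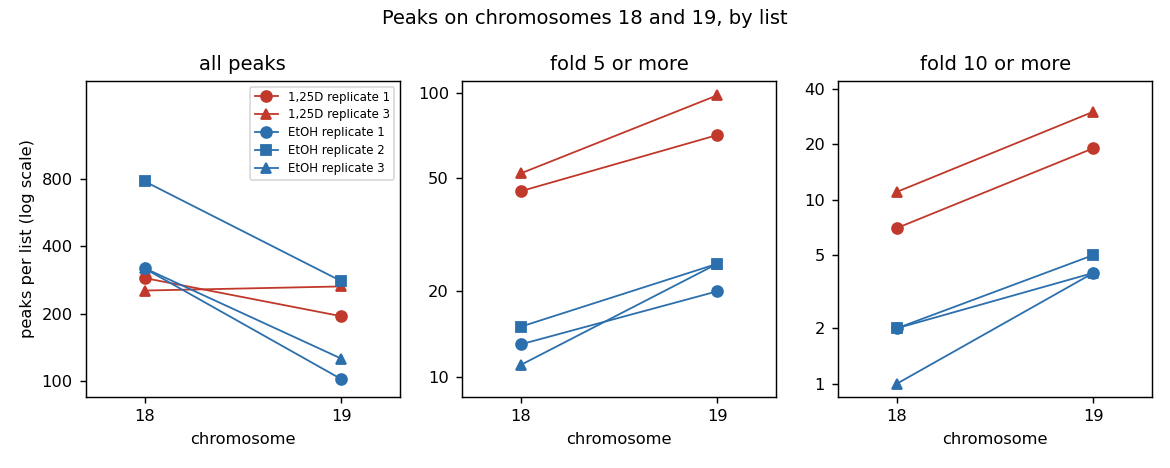
Number of peaks (log scale) on chromosomes 18 and 19 in each list, with 1 line per list, for all peaks, for fold 5 or more and for fold 10 or more. The lines fall from chromosome 18 to 19 in 4 of 5 lists for all peaks and rise in 5 of 5 lists at both fold limits.

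The share of strong peaks, which also moves with the number of weak peaks in a list, was higher on chromosome 19 in 5 of 5 lists. On chromosome 18, strong peaks made up 15.6% (95% Wilson interval 11.8 to 20.2) and 20.5% (16 to 25.9) of the peaks under 1,25D. Under EtOH they made up 4.08% (2.40 to 6.85), 1.92% (1.16 to 3.14) and 3.44% (1.93 to 6.05). On chromosome 19 the shares were 36.4% (30.0 to 43.4) and 37.0% (31.4 to 42.9) under 1,25D. The EtOH shares there were 19.6% (13.1 to 28.4), 8.93% (6.12 to 12.8) and 19.8% (13.8 to 27.7). The intervals of the 2 chromosomes do not overlap in any of the 5 lists; they cover counting error only. EtOH replicate 2, the longest list, had the lowest share on both chromosomes.

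Chromosome 19 ranked first of the 17 chromosomes for this share in each of the 5 lists. Chromosome 18 ranked 15th and 14th under 1,25D and 16th, 15th and 11th under EtOH. Chromosome 19 was followed by other chromosomes rather than set apart from them. On chromosome 22 the share was 30.9% and 32.6% under 1,25D, and 17.9%, 7.94% and 17.5% under EtOH. The values for chromosome 20 were 25.1% and 31.9% under 1,25D, and those for chromosome 17 were 26.2% and 26%. The gene table gives chromosomes 22, 20 and 17 451, 537 and 1169 protein-coding genes, and their peaks reach to 51.1, 62.9 and 81.2 Mb. Chromosome 1 has the most such genes, 2062, with peaks reaching to 249 Mb, and ranked 12th to 17th for the share. Whether the share follows gene number or gene density was not tested.

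**Figure D2:**
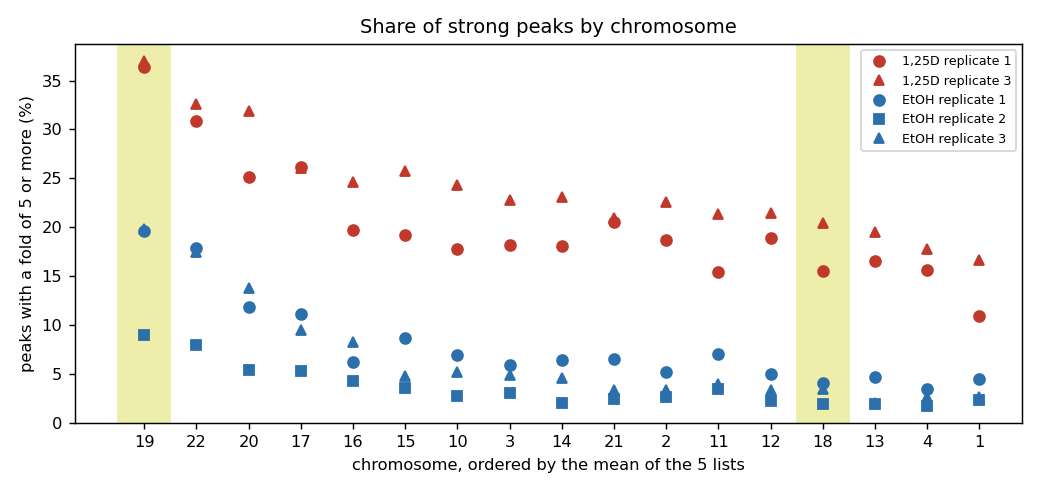
Percent of peaks with a fold of 5 or more on each of the 17 chromosomes, with 1 point per list. Chromosome 19 has the highest point in all 5 lists, and chromosome 18 lies in the lower part, at rank 11 to 16.

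Chromosome 19 peaks were also wider under 1,25D. The median peak width was 220 and 264 bp on chromosome 19, against 150 and 190.5 bp on chromosome 18. Under EtOH the widths were closer, at 157.5, 148 and 184.5 bp on chromosome 19 and 147, 148 and 156 bp on chromosome 18. The median fold was 4.27 and 4.28 on chromosome 19 and 3.69 and 3.45 on chromosome 18 under 1,25D. It was 3.67, 3.46 and 3.34 against 3.62, 3.46 and 3.01 under EtOH. The median peak therefore differed little between the chromosomes in EtOH replicates 1 and 2, and the contrast there lay among the highest folds.

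The treatments were apart in how all peaks and weak peaks were split between the chromosomes, and they overlapped for strong peaks. For all peaks the chromosome 19 over 18 ratio was 0.675 and 1.04 under 1,25D and 0.320, 0.358 and 0.394 under EtOH. The mean log2 ratio was -0.25 ± 0.44 (SD, n = 2) under 1,25D and -1.49 ± 0.15 (SD, n = 3) under EtOH, a difference of 1.24. The exact two-sided permutation p was 0.1, the smallest that 2 against 3 lists allow, and 0.156 after Benjamini-Hochberg adjustment. Below fold 5 the ratio was 0.508 and 0.827 under 1,25D and 0.268, 0.332 and 0.327 under EtOH, again with no overlap.

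Among strong peaks the ratio was 1.58 and 1.88 under 1,25D and 1.54, 1.67 and 2.27 under EtOH, and the groups overlapped. The difference in log2 ratio was -0.062 (exact permutation p = 0.9, also 0.9 after adjustment), and it ran from -0.19 without 1,25D replicate 3 to 0.11 without EtOH replicate 3. At fold 10 or more the ratio was 2.71 and 2.73 under 1,25D and 2.0, 2.5 and 4.0 under EtOH, from few peaks. With so few lists, the p of 0.9 does not show that the ratios are equal.

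Put by chromosome, strong peaks were more numerous in the 1,25D lists to a like extent on both. Folds depend on each list's depth and background, which are unknown, so these ratios between treatments are a description. The ratio of 1,25D to EtOH, as geometric means over lists, was 3.75 on chromosome 18, 3.59 on chromosome 19 and 3.43 over all 17 chromosomes. On chromosome 18 the numbers were 48.5 ± 4.95 (SD, n = 2) and 13.0 ± 2.0 (SD, n = 3), and on chromosome 19 they were 84.5 ± 19.1 and 23.3 ± 2.89. At fold 10 or more the ratio was 5.53 and 5.54 on chromosomes 18 and 19, against 5.80 over all. The weak peaks went separate ways. Below fold 5 the ratio was 0.532 on chromosome 18, where each 1,25D list had fewer peaks than each EtOH list, and 1.12 on chromosome 19, where the groups overlapped. Over all 17 chromosomes it was 0.599, near the value of chromosome 18.

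Most sites were called in a single list, and chromosome 18 carried more of these. They numbered 1638 of 1746 sites (93.8%) on chromosome 18 and 492 of 645 (76.3%) on chromosome 19, against a background of 91.7% over all covered chromosomes. Of the single-list sites on chromosome 18, 1275 came from an EtOH list and 363 from a 1,25D list. On chromosome 19 the numbers were 312 and 180. Sites called in both 1,25D lists, with or without EtOH, were 77 (4.41%) on chromosome 18 and 126 (19.5%) on chromosome 19, against 5.42% over all covered chromosomes, so chromosome 18 was near that share. In these, chromosome 19 was ahead in number as well as in share, although it is the shorter chromosome.

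Sites called in both 1,25D lists and in no EtOH list, named 1,25D-only here, numbered 29 (1.66%) on chromosome 18 and 52 (8.06%) on chromosome 19. The background over all covered chromosomes was 2.4%. This order rests on asking for both 1,25D lists: with replicate 3 alone the counts were 187 and 171, and with replicate 1 alone they were 237 and 119, so that chromosome 18 was then ahead. Sites called in all 5 lists numbered 14 (0.802%) on chromosome 18 and 31 (4.81%) on chromosome 19, with a background of 1.21%. A further set, in both 1,25D lists and 1 or 2 EtOH lists, held 34 sites (1.95%) on chromosome 18, near the 1.82% over all covered chromosomes, and 43 (6.67%) on chromosome 19. The reverse set, with 2 or 3 EtOH lists and no 1,25D list, was small on both: 10 sites (0.573%) on chromosome 18 and 5 (0.775%) on chromosome 19, against a background of 0.877%.

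By length, the 2 chromosomes lay at or near opposite ends of the 17 for 1,25D-only sites and for sites in all 5 lists. There were 0.880 1,25D-only sites per Mb on chromosome 19, the highest density of the 17, and 0.372 on chromosome 18, which ranked 16th. For sites in all 5 lists the densities were 0.525 and 0.179 per Mb, ranks 1 and 17. Sites in both 1,25D lists and 1 or 2 EtOH lists stood at 0.728 per Mb on chromosome 19. On chromosome 18 they stood at 0.436, near the 0.426 over all covered chromosomes. All sites in both 1,25D lists, with or without EtOH, ranked 1st on chromosome 19 and 14th on chromosome 18. Single-list sites ran the other way, at 8.33 per Mb on chromosome 19 and 21.0 on chromosome 18, where the value over all covered chromosomes was 21.5.

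**Figure D3:**
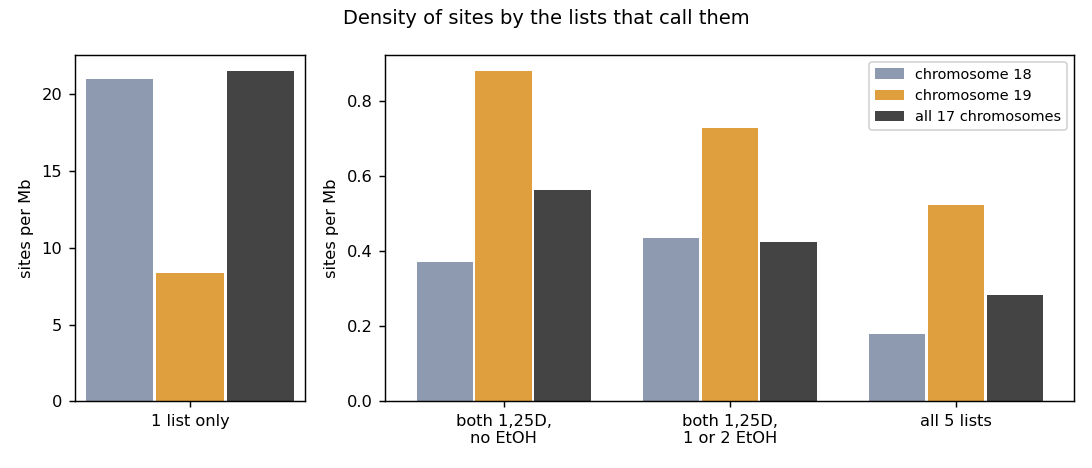
Sites per Mb on chromosome 18, on chromosome 19 and over all 17 chromosomes together, by the lists that call them. For 1,25D-only sites (0.880 per Mb) and sites in all 5 lists (0.525), chromosome 19 lies above the pooled value. Chromosome 18 lies below it for both (0.372 and 0.179). For sites in both 1,25D and 1 or 2 EtOH lists, chromosome 18 (0.436) lies near the pooled value (0.426) and chromosome 19 (0.728) above it.

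Once a site was called in both 1,25D lists, its calls under EtOH split in a similar way on the 2 chromosomes. Of these sites 37.7% on chromosome 18, 41.3% on chromosome 19 and 44.2% over all were in no EtOH list. The share in all 3 EtOH lists was 18.2%, 24.6% and 22.3%. These are shares of merged sites, given as a description with no test. Chromosome 19 thus held more of both kinds, those called without hormone and those called only with it.

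The strong 1,25D peaks can be asked the same question in each list. In 1,25D replicate 1, 30 of 45 strong peaks on chromosome 18 (66.7%, 95% Wilson interval 52.1 to 78.6) and 51 of 71 on chromosome 19 (71.8%, 60.5 to 81.0) overlapped a peak of any EtOH list. In replicate 3 the values were 34 of 52 (65.4%, 51.8 to 76.8) and 64 of 98 (65.3%, 55.5 to 74.0). The difference, chromosome 19 minus 18, was 5.16 percentage points in replicate 1 and -0.0785 in replicate 3, with a mean of 2.54. No test was made, since a permutation test over 2 lists cannot reach 0.05. Most strong 1,25D peaks were found in the other 1,25D list as well. That share was 84.4% and 88.5% on chromosome 18 and 95.8% and 85.7% on chromosome 19.

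Strong EtOH peaks were found again under 1,25D on both chromosomes, with more misses on chromosome 18. On chromosome 19, 19 of 20, 25 of 25 and 25 of 25 overlapped a 1,25D peak. On chromosome 18 the numbers were 8 of 13, 12 of 15 and 11 of 11. The EtOH list with the most misses on chromosome 18 was replicate 1.

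Among peaks of fold 3 to 4 the chromosomes differed in how often a peak came back. Of peaks with fold 3 to 4, 13.1% and 18.8% on chromosome 18 were found in any other list from the 1,25D lists, against 36.5% and 25.3% on chromosome 19. The share found in another list of the same treatment was 11.3% against 34.6% in 1,25D replicate 1 and 9.90% against 18.7% in replicate 3, chromosome 18 first. In the EtOH lists it was 5.62% against 20%, 1.47% against 5.30% and 5.61% against 30.2%. Chromosome 19 was higher in 5 of 5 lists for this range of fold. At fold 4 to 5 it was higher in 4 of 5 lists, 1,25D replicate 3 being close at 48% against 45.9%. EtOH replicate 3 went the other way, with 88.9% on chromosome 18 from 9 peaks and 62.5% on chromosome 19 from 16 peaks. At fold 5 to 8, 1,25D replicate 3 was slightly lower on chromosome 19, at 75% against 77.8%, and each other list was higher there. At fold 8 or more, every 1,25D peak on either chromosome was found in the other 1,25D list.

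**Figure D4:**
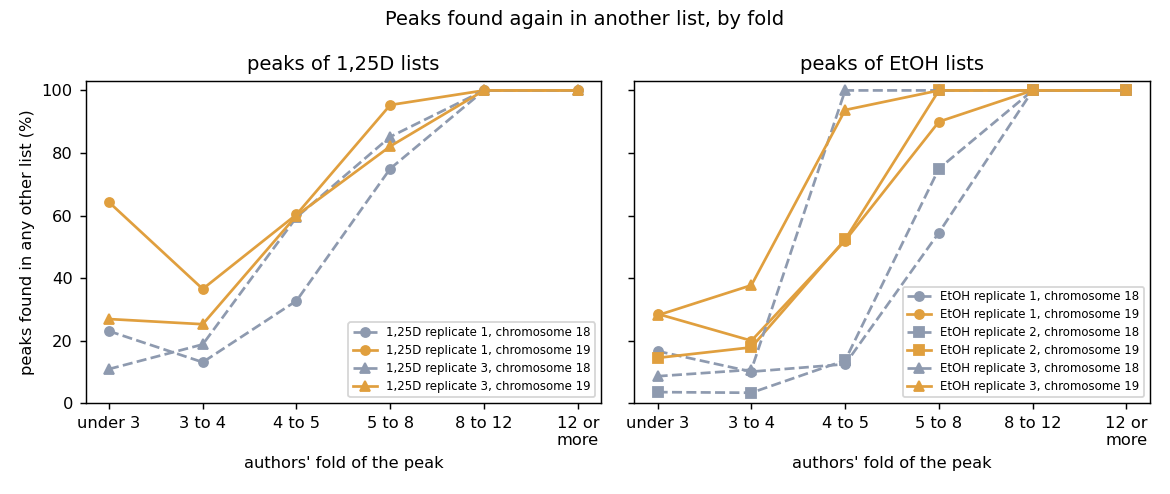
Percent of peaks found in any other list, by range of the authors' fold, for chromosomes 18 and 19 and each list. At fold 3 to 4 the chromosome 19 points lie above those of chromosome 18 in 5 of 5 lists, and in EtOH replicate 3 the order turns at fold 4 to 5. It also turns in 1,25D replicate 3 at fold 5 to 8, with 85.2% on chromosome 18 and 82.1% on chromosome 19.

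Pairs of lists shared more on chromosome 19. The 1,25D lists shared 77 sites on chromosome 18, which is 30.4% of the sites of the shorter list, and 126 on chromosome 19, which is 65.6%. Over all covered chromosomes the share was 32.4%. Pairs of EtOH lists shared 7.91% to 8.54% on chromosome 18 and 35.6% to 38.7% on chromosome 19. Pairs of 1 list from each treatment shared 9.82% to 17.8% and 28.6% to 49.2%. On chromosome 18 each single list thus had much of its content to itself, and EtOH pairs shared less than any pair between treatments. Except for the 1,25D pair, no pair there reached the lowest between-treatment value of chromosome 19.

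The 1,25D-only sites were of modest fold on both chromosomes, which their definition favours. Every 1,25D peak of fold 12 or more on either chromosome overlapped an EtOH peak, so none could fall in this class. Their mean 1,25D fold had a median of 5.03 (quartiles 3.85 and 5.57) on chromosome 18 and 4.91 (3.90 and 5.61) on chromosome 19. No such site on either chromosome reached a mean fold of 10, while 25 of 1169 did over all covered chromosomes. The highest was 7.46 on chromosome 18 and 8.22 on chromosome 19. Chromosome 19 therefore had more of these sites, at a like fold. Their median length was 352 and 349.5 bp, against 148 bp for single-list sites on both chromosomes. A site spans all of its joined peaks, and a 1,25D-only site always joins peaks from both 1,25D lists. The greater length of these sites is thus partly built in.

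On chromosome 18 the leading 1,25D-only site was chr18:71901544-71902072, with folds of 6.37 and 8.55 in 1,25D replicates 1 and 3. It lies at the far edge of the longest stretch of the chromosome with no site in both 1,25D lists, described below. A close pair followed at chr18:22549687-22550318 (6.01 and 8.12) and chr18:22550791-22551147 (5.41 and 7.31), 473 bp apart. The remaining leading sites were chr18:10483431-10483747 (5.84 and 7.93), chr18:57820408-57820866 (5.78 and 6.93), chr18:28509765-28510116 (7.21 and 5.25), chr18:60891155-60891520 (4.81 and 6.32) and chr18:74777188-74777501 (4.81 and 5.96). In 7 of these 8 sites the fold was higher in replicate 3 than in replicate 1.

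On chromosome 19 the leading 1,25D-only site was chr19:47236776-47237647, with folds of 9.42 and 7.02. A pair 1852 bp apart lay at chr19:8749613-8750245 (6.91 and 8.00) and chr19:8747386-8747761 (6.01 and 5.76). Further sites were chr19:33648637-33649130 (5.78 and 9.78), chr19:48357739-48358128 (5.84 and 7.93), chr19:55174021-55174554 (5.30 and 8.12), chr19:2546203-2546596 (5.41 and 7.40) and chr19:9851828-9852135 (6.13 and 5.84). The range of folds was close to that of the leading sites on chromosome 18.

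Sites in all 5 lists had higher folds, and more so on chromosome 19. Asking for a call in every list itself favours high folds, so the contrast with 1,25D-only sites is partly built in. Their mean 1,25D fold had a median of 8.69 (quartiles 7.31 and 10.9) on chromosome 18 and 12.5 (7.14 and 16.3) on chromosome 19, and 9.91 over all. A mean 1,25D fold of 10 was reached at 4 of 14 sites on chromosome 18, 20 of 31 on chromosome 19 and 292 of 588 over all. The median of the mean EtOH fold was 5.26, 6.77 and 5.54. The lower quartile was thus near the same on both chromosomes, and the upper part of the range was where chromosome 19 stood higher.

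Folds of different lists depend on each list's own depth and background, which are unknown, so the comparison of treatments at these sites is a description. Every 1,25D fold lay above every EtOH fold at 8 of 14 sites (57.1%) on chromosome 18 and 21 of 31 (67.7%) on chromosome 19. The background over all 588 such sites was 67.7%, so neither share stood away from it by more than 2 sites. No site in all 5 lists on either chromosome had every EtOH fold above every 1,25D fold, with a background of 1.53%. The median ratio of 1,25D to EtOH fold was 1.76 on chromosome 18, 1.75 on chromosome 19 and 1.62 over all.

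**Figure D5:**
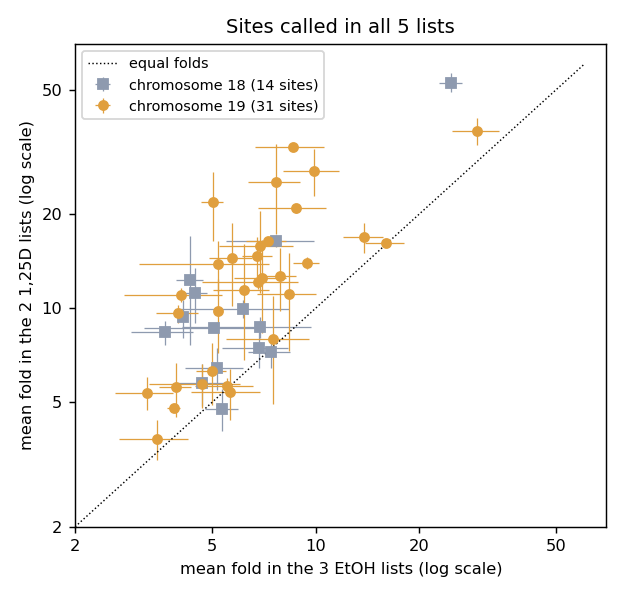
Mean fold in the 1,25D lists against mean fold in the EtOH lists (both log scales) at the 14 sites of chromosome 18 and the 31 sites of chromosome 19 called in all 5 lists. Most points lie above the line of equal fold, and 20 of 31 chromosome 19 sites reach a mean 1,25D fold of 10, against 4 of 14 on chromosome 18.

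Under 1,25D the site with the highest fold on either chromosome was on chromosome 18, the one with fewer sites in all 5 lists. At chr18:75929113-75930013 the folds were 55.3 and 50.1 under 1,25D and 22.6, 25.6 and 26 under EtOH. It held the highest fold of chromosome 18 in each of the 5 lists. The site ranked next, chr18:20633974-20634776, had folds of 15.9 and 16.9 under 1,25D and 5.68, 10.1 and 7.33 under EtOH. The treatments did not overlap at either site, and the ratio of 1,25D to EtOH fold was 2.13 and 2.19.

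Further down, chromosome 18 had sites with little or no difference between treatments. At chr18:57069379-57070173 the folds were 7.81 and 6.68 under 1,25D and 7.74, 6.23 and 8.23 under EtOH, a ratio of 0.98. The site chr18:9926616-9927352 had 6.74 and 8.24 under 1,25D and 5.77, 8.53 and 6.23 under EtOH. At chr18:3593159-3594444 the values were 9.19 and 8.24 under 1,25D and 10.2, 5.03 and 5.52 under EtOH. The groups overlapped at these 3 sites. Among the chromosome 18 sites in all 5 lists, the lowest ratio, 0.89, was at chr18:43012260-43013138, with 5.30 and 4.25 under 1,25D and 4.72, 5.51 and 5.86 under EtOH. A 1,25D-only site lay 139 bp from it. They count as 2 sites because no peaks joined them by at least 1 bp, and whether they are parts of 1 bound region was not tested.

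The largest gain with hormone among the chromosome 18 sites in all 5 lists was at chr18:58323765-58324353, with 9.02 and 15.7 under 1,25D and 4.76, 4.15 and 4.05 under EtOH, a ratio of 2.76. At chr18:48956881-48957455 the folds were 9.62 and 12.8 under 1,25D and 4.44, 4.84 and 4.05 under EtOH, a ratio of 2.50. At chr18:33115490-33116046 they were 7.85 and 8.88 under 1,25D and 3.62, 4.40 and 2.91 under EtOH, a ratio of 2.32. All 3 were separate between treatments. The last leading site, chr18:12419941-12420586, had 10.4 and 9.52 under 1,25D and 7.44, 7.43 and 3.56 under EtOH.

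On chromosome 19 the site with the highest fold in each of the 5 lists was chr19:18612926-18614216. Its folds were 39.4 and 34.4 under 1,25D and 28.6, 34.5 and 25.5 under EtOH, and the groups overlapped, with a ratio of 1.26. Other leading sites gained far more. At chr19:7272768-7273399 the folds were 32.5 and 32.9 under 1,25D and 6.55, 10.4 and 8.92 under EtOH, a ratio of 3.86. At chr19:17220558-17221306 they were 24.3 and 30.9 under 1,25D and 9.12, 8.51 and 12 under EtOH, a ratio of 2.81. The site chr19:17294687-17295332 had 19.6 and 31.1 under 1,25D and 7.86, 6.29 and 8.92 under EtOH, a ratio of 3.24.

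Among the chromosome 19 sites in all 5 lists, the largest ratio, 4.30, was at chr19:14436081-14436704, with 18 and 25.7 under 1,25D and 4.76, 4.84 and 5.44 under EtOH. At chr19:4563578-4563907 the folds were 20.4 and 21.4 under 1,25D and 10.1, 9.69 and 6.49 under EtOH, and another site in all 5 lists lay 1150 bp away. At chr19:54606076-54606953 they were 14.4 and 13.5 under 1,25D and 8.93, 10.4 and 8.92 under EtOH. The groups were separate at each of these sites.

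Strong sites with near-equal folds in both treatments were also present on chromosome 19. At chr19:52010854-52011998 the folds were 15.9 and 16.5 under 1,25D and 14.1, 18.2 and 15.6 under EtOH, a ratio of 1.02. At chr19:33739369-33740507 they were 15.6 and 18.2 under 1,25D and 12.1, 15.8 and 13.6 under EtOH, a ratio of 1.22. Weaker sites of this kind were chr19:40163589-40164592, with 4.69 and 6.11 under 1,25D and 4.17, 6.23 and 6.49 under EtOH, and chr19:9949282-9949987, with 5.41 and 5.90 under 1,25D and 4.30, 6.14 and 6.10 under EtOH. The groups overlapped at all 4 sites, so high fold and a gain with hormone did not always go together.

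Sites repeated under EtOH and absent from both 1,25D lists were all weak among those named. On chromosome 19, chr19:42903307-42903578 had 4.54, 3.67 and 3.85 and was the only site of the 2 chromosomes that all 3 EtOH lists held and both 1,25D lists lacked. The others there were chr19:56919410-56919741 (3.78 and 3.71 in EtOH replicates 2 and 3), chr19:56954823-56955068 (4.84 and 3.01 in replicates 2 and 3) and chr19:52013042-52013289 (3.10 and 3.75 in replicates 1 and 2). The last lay 1044 bp from the near-equal site at chr19:52010854-52011998. On chromosome 18 the leading ones were chr18:19579317-19579554 (3.89 and 3.77 in replicates 1 and 3), chr18:66737834-66738104 (3.67 and 4.15 in replicates 1 and 2), chr18:11799273-11799486 (4.15 and 3.01 in replicates 2 and 3) and chr18:66970884-66971137 (3.57 and 3.71 in replicates 1 and 3). None of these 8 sites reached fold 5 in any list.

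Along the chromosomes, the density of all sites and of repeated sites differed in opposite ways. In windows of 5 Mb, chromosome 18 had a median of 117.5 sites over 16 windows and chromosome 19 a median of 53 over 12 windows. Sites in both 1,25D lists had a median of 5 per window on chromosome 18 and 11 on chromosome 19. On chromosome 19 the richest windows were 45 to 50 Mb with 18 such sites and 0 to 5 Mb with 17. The poorest were 25 to 30 Mb with 1 and 20 to 25 Mb with 2. A stretch of 3.16 Mb with no site in any list, chr19:24576630-27731919, lies across their border. On chromosome 18 the richest window, 60 to 65 Mb, had 9, and the next one, 65 to 70 Mb, had 0 among its 147 sites.

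That window is part of a stretch of 10.3 Mb, chr18:61648528-71901544, with no site in both 1,25D lists. It held 303 sites, 298 of them called in 1 list only. The longest such stretch on chromosome 19, chr19:24217272-28369921, was 4.15 Mb long and held 34 sites, 32 of them from 1 list. The chromosome 18 stretch was thus well covered by calls. Most of the chromosome 19 stretch, 3.16 of its 4.15 Mb, had no site in any list. Whether peaks can be called in that part was not tested. The median distance between neighbouring sites in both 1,25D lists was 461 kb on chromosome 18 and 217 kb on chromosome 19, and 5 and 14 neighbours lay within 10 kb of each other.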

How the data were processed

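Peaks called for each library on its own were used as deposited. Per the submitters' processing notes, reads were aligned with Bowtie 1.1 to hg19 and peaks were called with MACS2. For MACS2, neither version nor settings are given in those notes. The authors' fold of each peak is a linear ratio, and its p-value is deposited beside it. Whether starts count from 0 or 1 is not stated, and positions are printed as deposited. The last line was incomplete in 2 lists and was left out. Lists were read, merged and counted in Python 3.11.15 with numpy 2.4.6 and pandas 2.3.3, and merging was tested on simulated lists. Peaks sharing at least 1 bp were joined, so a site can span more than its peaks share. Chromosome length was taken as the furthest peak end in any list.

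The chromosomes, the site classes and the tests were chosen with earlier results of these data known. Named sites, per chromosome, ranked by mean within-list percentile of fold, were the 8 highest 1,25D-only sites, the 8 highest in all 5 lists, up to 4 highest repeated under EtOH only, and the 3 sites in all 5 lists with the largest gap between treatments in each direction. Wilson intervals are at 95% and cover counting error only. Alternatives were fold limits of 5 and 10, 1 highest p for all lists, equal list length (8253 peaks), 50% overlap, peaks per Mb, leaving out the top windows, leaving out each list, and the replicate block. Splitting the lists by their highest p was added after seeing the data. The input sample was not analysed here.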

Additional observations from a re-analysis of the deposited data

How the results depend on the processing

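With peaks of fold 5 or more, the log2 ratio of chromosome 19 over 18 was 0.82 and its treatment difference was -0.062, and with fold 10 or more the ratio was 1.44, as in the report. The ratio for all peaks kept its sign in the 11 other settings and its treatment difference in 12. The treatment difference for strong peaks was 0.0034 when the limit was fold 10. At fold 5 or more it was 0.036 between the lists with the lower highest p, and with 1 list left out it ran from -0.19 (without 1,25D replicate 3) to 0.11 (without EtOH replicate 3), so its sign is not fixed. 1,25D-only sites with 1 list left out ran from 33 to 237 on chromosome 18 and from 53 to 171 on chromosome 19. The high values come from leaving out a 1,25D list (187 and 171 without replicate 1, 237 and 119 without replicate 3), where 1 list is then enough for a site. Chromosome 18 is thus ahead without either 1,25D list, and the order in the report rests on asking for both. Between the lists with the lower highest p there were 263 and 157 such sites, and between those with the higher one 193 and 173, again with a single 1,25D list each. When peaks under fold 10 were dropped from every list before merging, 4 and 11 sites were 1,25D-only, which are other sites, since none of the 29 and 52 reached a mean fold of 10. With peaks under fold 5 dropped there were 30 on chromosome 19. Sites in all lists fell to 5 and 16 at fold 5 or more and to 1 and 3 at fold 10 or more. On chromosome 18, 26 and 23 sites were in every list with the lower and with the higher highest p. Each of these splits holds only part of the lists, so fewer calls are needed than in the main count. The difference between chromosomes in the percent of strong 1,25D peaks with an EtOH peak was 7.48 points when the EtOH peak also had to reach fold 5, 6.71 at fold 10 or more and 6.84 at 50% overlap, and ran from -0.0785 (without 1,25D replicate 1) to 5.16 (without 1,25D replicate 3).

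With the replicate block (replicates 1 and 3 only) the ratio was -0.87, its treatment difference 1.24 for all peaks and -0.12 for strong ones, and 37 and 66 sites were 1,25D-only. These values are the same as those without EtOH replicate 2, the list that the block leaves out. They show the loss of that list and say nothing about pairing. The exact tests in the block had 16 assignments for the ratio and 4 for its treatment difference. Those are too few for any result to be called, so the block could not change a call. Fold deviations of the numbers 1 and 3 had a correlation of 0.066 over 588 sites. That value cannot tell whether samples of the same number shared a culture or batch, which the labels do not say. The replicates 1 of 1,25D and EtOH did have a near-equal highest p (0.00433 and 0.00431). The 50% overlap bears only on sites, not on peak numbers. Unknown depth limits every count of absent calls.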

Other observations

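On chromosome 18, 5 of 29 1,25D-only sites (17.2%) lay within 100 kb of a site in all 5 lists, and on chromosome 19, 12 of 52 (23.1%) did. The median distance to the nearest such site was 1021 kb on chromosome 18 and 371 kb on chromosome 19. Within 10 kb there were 1 and 5. Chromosome 19 has more sites in all 5 lists over a shorter length, and no adjustment for that was made. The longest stretch with no site in any list was 4.52 Mb on chromosome 18 (chr18:13992578-18512141) and 3.16 Mb on chromosome 19 (chr19:24576630-27731919). Whether peaks can be called in these stretches was not tested.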
